A study of Mus musculus with 2 samples.

Results

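The cells described here are mouse spermatogonia in culture that carried at least 1 unique molecular identifier (UMI, the tag that marks 1 captured RNA molecule) of Neurog3, Kit or Stra8. They numbered 146 of 1490 germ cells in 2 single-cell RNA libraries, 71 of 730 in the control siRNA library and 75 of 760 in the Chd4 siRNA library, out of 1676 cells in all. A cell was taken as a germ cell when it had at least 1000 UMIs and more summed UMIs of Ddx4, Dazl, Mael, Dnd1 and Zbtb16 than of the fibroblast genes Col1a1, Col1a2, Col3a1, Fn1 and Sparc. The members were therefore chosen by measured values, and their levels of the 3 genes describe that choice and are no finding. The threshold was the lowest one possible: 61 control and 65 Chd4 siRNA members held exactly 1 UMI of the 3 genes together, and all 659 and 685 other germ cells held none.

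Both groups were undifferentiated spermatogonia of C57BL/6 mice, taken from adult testes by magnetic sorting for THY1 and kept on SNL76/7 embryonic fibroblasts that mitomycin had stopped from dividing, in serum-free medium with GDNF and bFGF. The cells were taken off the feeders and exposed on plastic to 2 µL Lipofectamine and 75 pmol of siRNA over 24 hours, with a non-targeting siRNA in the control group and an siRNA against Chd4 in the other. The CHD4 protein is an ATP-driven nucleosome remodeller and the motor subunit of NuRD. The cultures came from 3 biological replicates, but each group was 1 library, so no test between groups was possible and none was made. All intervals are 95% intervals for counting error only. Those on summed UMIs leave out the spread between cells and are narrower than that spread would give.

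Spermatogonial stem cells renew themselves and also produce progenitors, which later commit to differentiation under retinoic acid. Neurog3, a basic helix-loop-helix transcription factor, is a classical marker of progenitor spermatogonia. Kit, the receptor tyrosine kinase for stem cell factor, appears as spermatogonia differentiate, and Stra8 is induced by retinoic acid and is needed for entry into meiosis. In GRCm38, Neurog3 lies on chromosome 10 (62133090 to 62134763, plus strand), Kit on chromosome 5 (75574916 to 75656722, plus strand) and Stra8 on chromosome 6 (34920163 to 34939344, plus strand).

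The share of germ cells with a UMI of any of the 3 genes was nearly the same in both libraries. It was 9.73% (exact binomial interval 7.67 to 12.1) in the control siRNA library and 9.87% (7.84 to 12.2) in the Chd4 siRNA library. The difference, Chd4 siRNA minus control, was 0.14 percentage points with a Newcombe interval of -2.91 to 3.17. Neurog3 was detected most often, in 35 control cells (4.79%) and 36 Chd4 siRNA cells (4.74%), with 43 and 41 UMIs in all. Stra8 followed with 25 cells (3.42%, 28 UMIs) and 29 cells (3.82%, 32 UMIs), and Kit was found in 13 cells (1.78%, 17 UMIs) and 12 cells (1.58%, 13 UMIs). These shares depend on depth. With every cell thinned to 9000 UMIs, which left out 65 shallower germ cells in each library (3 and 4 members among them), the shares were 5.41% (36 of 665) and 6.47% (45 of 695).

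**Figure D1:**
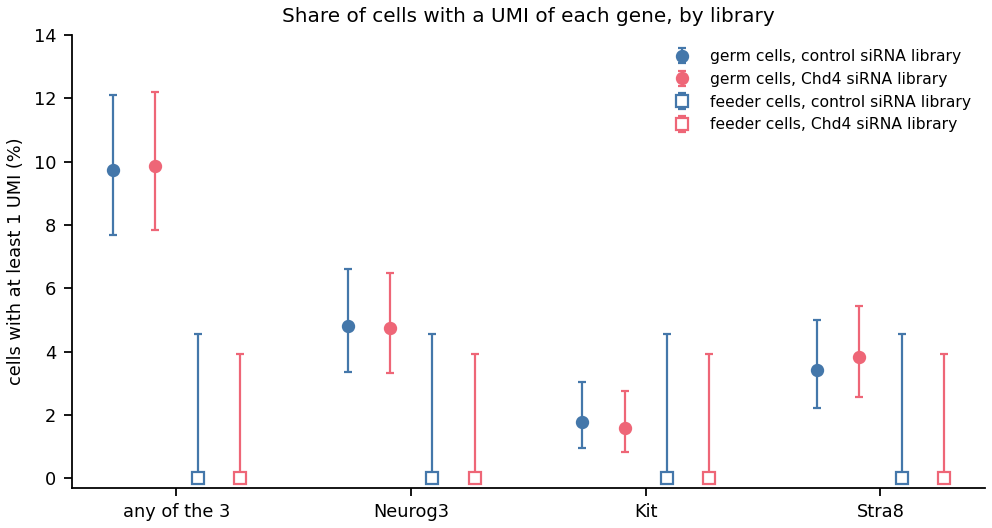
Share of germ cells (filled circles) and feeder cells (open squares) with at least 1 UMI of any of the 3 genes, or of Neurog3, Kit or Stra8 alone (y axis, percent), in the control siRNA (blue) and Chd4 siRNA (red) libraries; bars are exact 95% binomial intervals. The germ cell points of both libraries lie together for each gene, and every feeder point is at 0.

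Fibroblast feeder cells, told apart by the same gene sums, had no UMI of the 3 genes. The count was 0 of 79 feeder cells in the control siRNA library, with an exact binomial interval up to 4.56%. It was 0 of 92 in the Chd4 siRNA library, with an interval up to 3.93%. A floor of 3 counts would be a share of 3.80% and 3.26%. Feeder cells were the deeper cells, with a median of 38655 and 39672 UMIs against 15249 and 15511 in germ cells. At the germ cell rate, 24.1 and 25.7 UMIs of the 3 genes would have fallen in the feeders. The level was 7.58 and 7.04 UMIs per 1000000 UMIs (CPM) in germ cells. In feeders the floor of 3 counts is 0.945 and 0.822 CPM, and the exact upper bounds are 1.16 and 1.01 CPM.

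The 3 genes were seldom found together. Neurog3 alone was seen in 34 control and 35 Chd4 siRNA cells, Stra8 alone in 24 and 27, and Kit alone in 11 and 11. Neurog3 and Kit shared 1 control cell and 0 Chd4 siRNA cells, where independent detection at 1 constant rate per UMI in all germ cells of the library would give 1.08 and 0.759. Neurog3 and Stra8 shared 0 and 1 cells against 1.76 and 1.84 at that rate. Kit and Stra8 shared 1 and 1 against 0.710 and 0.597. Pairs were thus as few as a constant rate gives, and the numbers are too small to show more or fewer.

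The spread of the UMIs over cells describes the values that chose the members and supports nothing further. Of the control germ cells, 10 held at least 2 UMIs of the 3 genes against 5.43 at a constant rate, and in the Chd4 siRNA library the figures were 10 and 5.01. At least 3 UMIs were held by 2 and 1 cells against 0.269 and 0.235. With the totals fixed, it follows that fewer cells held any UMI, 71 and 75 against 82.3 and 80.7. The cell with the highest value, in the control siRNA library, had 7 Neurog3 UMIs among 21242, with 5 of Sohlh1, 10 of Nanos3 and 7 of Egr4, all transcription or RNA regulators of undifferentiated or early differentiating spermatogonia. Another control cell had 4 Kit UMIs among 31033, and 1 Chd4 siRNA cell had 1 Kit and 2 Stra8 UMIs.

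Members and other germ cells had like depth. The median UMIs per cell were 15757 in members and 15176 in other germ cells of the control siRNA library, and 15322 and 15568 in the Chd4 siRNA library. The median number of genes was 4050 against 4013 and 4135 against 4093. The germ cell rule fixed that both groups carry germ cell genes. The median was 28 and 34 UMIs of the 5 germ cell rule genes per member, against 27 and 30 in the others, beside 1 UMI of the 5 fibroblast rule genes in each group. Barcodes could be read for 816 control cells and for 799 of 860 Chd4 siRNA cells. Among those, 1 barcode was shared by both libraries, and it belonged to no member. The doublet caller marked 8 cells (0.980%) and 11 cells (1.28%), 1 of them a control member and 0 in the Chd4 siRNA members.

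Across all genes, the members were little different from the other germ cells, and what differed was mostly not shared by the libraries. A gene was called when the log2 ratio of its share of UMIs, members over others, lay beyond 0.5 in the same direction with an interval that left out 0 in both libraries. Of 9827 genes with at least 100 UMIs over all germ cells, 18 were called higher (0.183%) and 5 lower (0.0509%). In the control siRNA library alone, 195 genes were higher (1.98%) and 186 lower (1.89%) by the same limits, and in the Chd4 siRNA library alone 300 were higher (3.05%) and 95 lower (0.967%). Most of the 18 calls did not hold without 1 cell. Single cells weighed on some of them. Others were spread over cells but lay close to the limits, with lower bounds down to 0.012. With the fullest cell of each gene left out of the members in each library, an alternative set after the data were seen that takes UMIs from 1 side of the ratio only, 3 of the 18 met the limits (Irf8, Map1b and Zfp263). Leaving out the fullest other germ cell kept 4 of the 5 lower calls, all but Ccar2. The log2 ratios of the 2 libraries had a Pearson correlation of 0.026 over 9821 genes with finite values (Spearman 0.013), and 0.057 over 1850 genes with at least 2000 UMIs. Genes are not independent replicates. For scale, over larger groups of cells chosen by 1 detected gene, germ cells with a UMI of Nanos2, an RNA-binding regulator of stem cells, gave 0.166 (203 and 183 cells), and germ cells with a UMI of Id4, an inhibitor of helix-loop-helix factors in stem cells, gave 0.050 (120 and 119 cells).

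**Figure D2:**
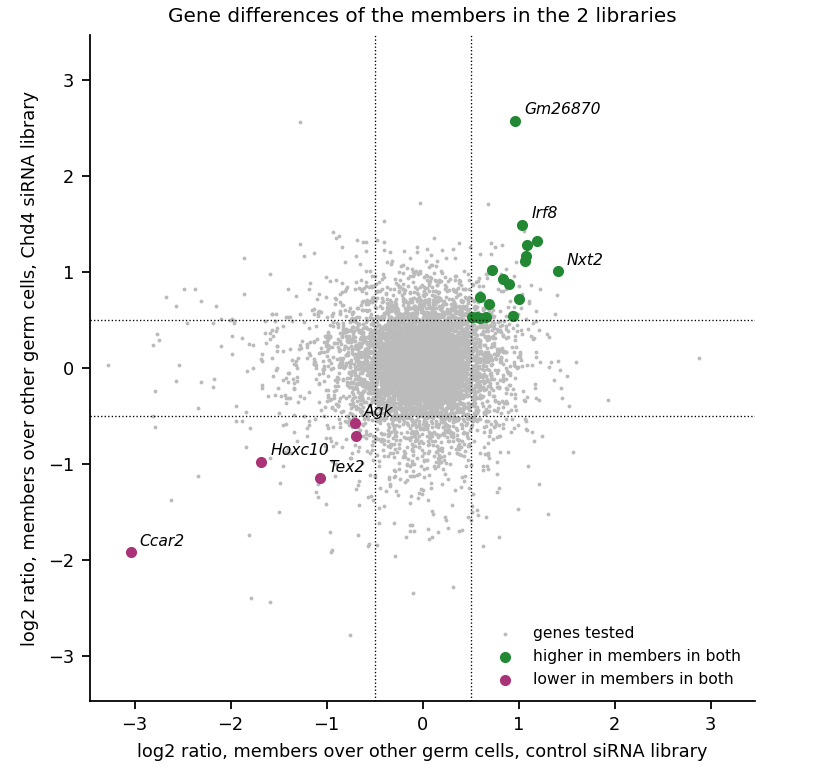
Each point is 1 of the genes tested: log2 ratio of members over other germ cells in the control siRNA library (x axis) and in the Chd4 siRNA library (y axis). Dotted lines mark log2 ratios of 0.5 and -0.5; green points are the 18 genes called higher and purple points the 5 called lower in both libraries, beside a cloud without a slope.

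The called genes that were higher included regulators of chromatin and transcription at low levels. Irf8, an interferon regulatory transcription factor best known from myeloid cells, stood at 18.3 CPM in members and 8.9 CPM in other germ cells of the control siRNA library (log2 ratio 1.04, 0.28 to 1.74), and at 20.9 and 7.5 CPM in the Chd4 siRNA library (1.49, 0.79 to 2.14). It was detected in 14 of 71 and 18 of 75 members, with at most 4 UMIs in a cell. Tet3, a dioxygenase that oxidises 5-methylcytosine in DNA, stood at 25.2 against 13.5 CPM (0.91, 0.28 to 1.49) and 25 against 13.6 CPM (0.88, 0.27 to 1.45). It was found in 21 and 22 members. Without its fullest cell in each library Tet3 had 0.72 and 0.66, and the interval of the Chd4 siRNA library reached 0. Zfp263, a zinc finger protein, was the more abundant at 48.7 against 30.2 CPM (0.69, 0.25 to 1.10) and 50.8 against 32.1 CPM (0.66, 0.25 to 1.05).

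Spermatogonial regulators were also among the 12 highest, with Sohlh1 the sixth and Nanos3 the last. Sohlh1, a helix-loop-helix factor of spermatogonial differentiation on chromosome 2 (25842995 to 25847248, minus strand), stood at 152 CPM in control members and 96.5 CPM in other control germ cells (log2 ratio 0.66, 0.42 to 0.89). In the Chd4 siRNA library it stood at 148 and 108 CPM (0.45, 0.22 to 0.68), short of the 0.5 limit, so it was not called. It was detected in 83.1% of members against 63.4% of others, and in 78.7% against 65.0%. Nanos3, an RNA-binding protein of undifferentiated germ cells, was called, at 67.9 against 44.8 CPM (0.60, 0.23 to 0.95) and 57.2 against 40.0 CPM (0.52, 0.13 to 0.88). That call rested on 1 cell in each library, with 10 of 78 and 11 of 71 UMIs. The control cell is the one with 7 Neurog3 UMIs. Without these cells the log2 ratios were 0.43 (0.04 to 0.80) and 0.29 (-0.12 to 0.69), short of the limit, and Nanos3 was detected in 42.3% of members against 36.9% of others and in 42.7% against 38.1%. Egr4, an early growth response factor that marks progenitors, had log2 ratios of 0.51 and 0.45 and was not called.

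The other high-ranking genes had varied functions. Eef2k, the kinase that inhibits translation elongation factor 2, had log2 ratios of 1.08 (0.23 to 1.86) and 1.28 (0.47 to 2.03). Map1b, a microtubule-associated protein, had 0.84 and 0.93, and Igtp, an interferon-inducible GTPase, 1.08 and 1.17. The secreted proteins Sfrp2, a WNT antagonist (34.0 against 16.9 CPM and 26.6 against 16.1 CPM), and Igfbp6, which binds insulin-like growth factors (log2 ratios 0.94 and 0.54), were also called. Single cells weighed on the last 2: 1 cell gave 12 of the 39 Sfrp2 UMIs of control members, and 18 of 85 and 16 of 80 Igfbp6 UMIs came from 1 cell in each library. Neither met the limits without its fullest cells, nor did Eef2k, Igtp and Pstk. Pstk, a kinase of selenocysteine synthesis, had 0.56 and 0.53. Of the called genes outside the ranking, Gm26870 (0.96 and 2.58) owed 25 of its 29 Chd4 siRNA UMIs to 1 cell. It is named for that, after its values were seen.

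**Figure D3:**
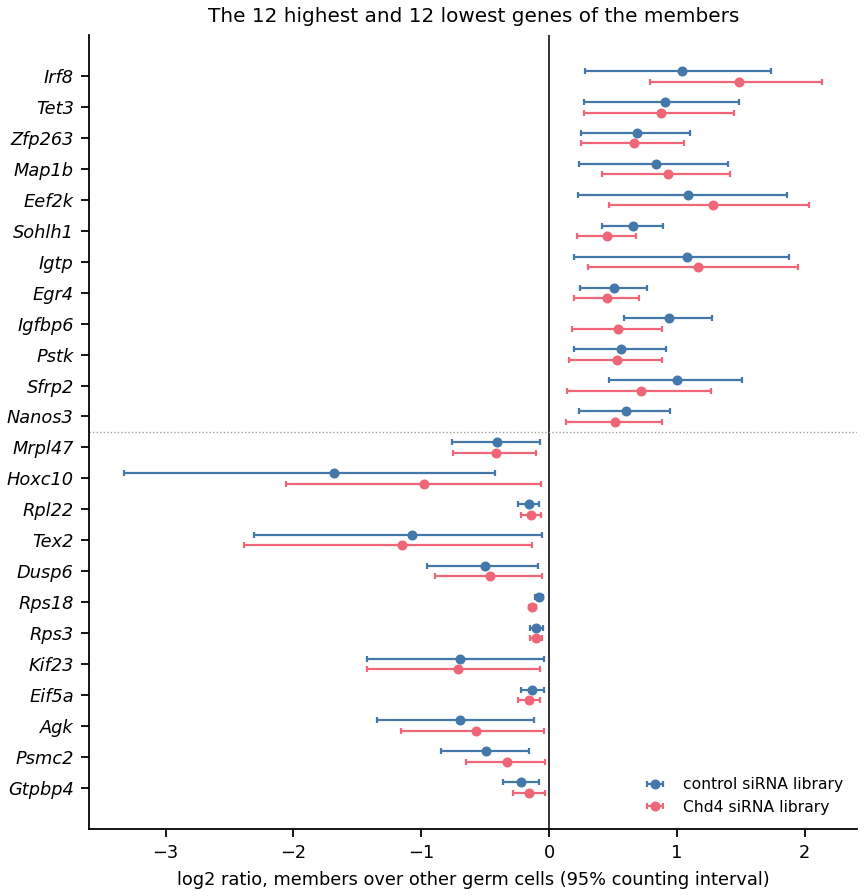
Log2 ratio of members over other germ cells (x axis) for the 12 highest and, under the dotted line, the 12 lowest genes in rank order (y axis), in the control siRNA (blue) and Chd4 siRNA (red) libraries; bars are 95% counting intervals. All 24 genes have both intervals on 1 side of 0, as the ranking requires, and 8 of the 12 lowest did not reach the call limits.

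Among the 12 lowest genes, most differences were small. Hoxc10, a homeobox gene, had 5 and 10 UMIs in members (log2 ratios -1.68 and -0.98), and Tex2, which acts in lipid transport, had 8 and 8 (-1.07 and -1.15). Kif23, a kinesin of cytokinesis, had -0.70 and -0.71, and Agk, a mitochondrial lipid kinase, had -0.70 and -0.57. Those 4 were called, as was Ccar2, outside the 12, which had only 1 and 2 UMIs in members and is named for that count. Dusp6, a phosphatase of ERK that growth factor signalling induces, had -0.50 and -0.46 and was not called. The ribosomal protein genes Rpl22 (-0.16 and -0.14), Rps18 (-0.08 and -0.13) and Rps3 (-0.10 and -0.10) entered the ranking through narrow intervals and differed by little. Mrpl47, Eif5a, Psmc2 and Gtpbp4 lay between -0.49 and -0.13.

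Taking all members together, the lists of spermatogonial genes did not move in 1 direction in both libraries, with few exceptions. Over all genes tested, 2477 lay above the median log2 ratio in both libraries and 2484 below it in both. The stem cell list (21 genes in the files, 16 tested, 0 called) stood at 721 CPM in control members and 783 CPM in other germ cells (log2 ratio of the sums -0.12), and at 803 and 744 CPM in the Chd4 siRNA library (0.11). The progenitor list (16 genes, 13 tested, 1 called higher) had -0.04 and 0.09, with 7 genes above the all-gene median in both libraries and 3 below, and median log2 ratios of 0.28 and 0.30 against -0.01 and 0.03 for all genes. The sum and the median of this list differ in sign in the control siRNA library, as do those of the differentiating list there (median 0.02) and of the apoptosis list in the Chd4 siRNA library (median -0.02). The list of differentiating spermatogonia (22 tested, 0 called) had -0.09 and 0.03, and meiotic entry (20 tested, 0 called) had 0.10 (0.03 to 0.17) and 0.09 (0.03 to 0.16). In control members with exactly 1 UMI of the 3 genes, meiotic entry was at -0.02.

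The first 3 pathway lists were higher in members of the Chd4 siRNA library alone, with control intervals that held 0. Retinoic acid synthesis, receptors and breakdown (17 tested, 0 called) had -0.04 (-0.19 to 0.10) and 0.19 (0.06 to 0.32). Above the retinoic acid median of other germ cells were 31 of 71 control members (43.7%, 31.9 to 56.0). In the Chd4 siRNA library they were 47 of 75 (62.7%, 50.7 to 73.6). KIT signalling (19 tested, 0 called) had -0.02 (-0.12 to 0.08) and 0.10 (0.006 to 0.20). The list of SOHLH and DMRT factors and translation regulators (19 tested, 1 called higher) had 0.02 (-0.04 to 0.09) and 0.12 (0.06 to 0.17). Of this list, 10 genes lay above the all-gene median in both libraries. NuRD (13 tested, 0 called) had -0.06 and -0.02, apoptosis and p53 (15 tested, 0 called) -0.07 and 0.03, and the immediate early genes, which also respond to dissociation (17 tested, 0 called), 0.10 and 0.01. S phase (43 tested, 0 called) had -0.10 and 0.06, and G2/M phase (51 tested, 1 called lower) -0.15 and 0.08. The integrated stress response (16 tested, 0 called) was the list with the most uniform direction, at -0.12 (-0.21 to -0.02) and -0.14 (-0.22 to -0.05), with 11 genes below the all-gene median in both libraries. Cell by cell the members hardly differed. Above the list median of other germ cells were 33 of 71 (46.5%, 34.5 to 58.7) and 37 of 75 (49.3%, 37.6 to 61.1).

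Markers of other cell types summed to low levels in members, and a part of each list was detected. The fibroblast markers (21 genes) summed to 826 CPM in control members and 838 CPM in other germ cells, and to 940 and 830 CPM in the Chd4 siRNA library (log2 ratio 0.18, 0.09 to 0.27), against 18752 and 20443 CPM in feeder cells. Lgals1 and S100a6 made up most of the sum in members, while Col3a1 had 3 and 0 UMIs and Lum 0 and 1. The Sertoli list summed to 28 and 23 CPM in members and 24 and 25 CPM in other germ cells. Of its 12 genes 6 were at 0 in members in each library, among them Amh, Dhh, Fshr and Inha, while Sox9 had 13 and 14 UMIs and Clu 8 and 7. The Leydig list summed to 2 and 2 CPM, with 7 of 8 genes at 0, among them Cyp11a1 and Insl3, and 2 and 3 UMIs of Star. The mast cell and blood list stood at 17 against 18 CPM and 24 against 17 CPM. Of its 12 genes 9 were at 0, among them Ptprc and the mast cell gene Cpa3, while Cd68 had 16 and 26 UMIs. The endothelial and smooth muscle list stood at 13 against 14 CPM and 18 against 14 CPM. Of its 8 genes 4 were at 0, among them Vwf and Myh11, while Pecam1 had 6 and 6 and Kdr 6 and 9 UMIs. The melanocyte list stood at 9.58 against 3.82 CPM in the control siRNA library (log2 ratio 1.32, 0.21 to 2.31), where Mitf gave 10 UMIs, and had -0.18 (-1.86 to 1.14) in the other, with Dct, Tyrp1 and Tyr at 0 in both. The spermatocyte and spermatid list had log2 ratios of -0.10 and 0.08 with 6 of 14 genes at 0, among them Prm1 and Prm2, and 8 and 6 UMIs of Tnp1, and the list of pluripotent cells 0.01 and 0.42 (202 against 201 CPM and 273 against 204 CPM).

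Split by the gene detected, several lists differed in the same direction in both libraries, among them the G2/M and stem cell lists. Cells with Neurog3 alone had fewer summed transcripts of the G2/M list than other germ cells, and cells with Stra8 alone had fewer of the stem cell list. The stem cell list was higher in Neurog3-only cells in the Chd4 siRNA library, with an interval that held 0 in the control siRNA library. Gene by gene, the libraries were hardly more alike than for all members: the Pearson correlation was 0.070 for Neurog3-only and 0.036 for Stra8-only cells over other germ cells, and 0.077 for Neurog3-only over Stra8-only cells. Both kinds were compared with the same other germ cells, so the direct comparison of the kinds was also made. It was set up after these values had been seen and is a description. Depth differed little and not in 1 direction: the median was 16067 and 14090 UMIs in Neurog3-only cells, 15438 and 15757 in Stra8-only cells, and 13639 and 15322 in Kit-only cells.

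In Neurog3-only cells, 20 genes were higher (0.204%) and 23 lower (0.234%) than in other germ cells in both libraries, and 12 of the 23 are in the G2/M list. These were Cenpf, Ube2c, Smc4, Cdc20, Cdca8, Cenpa, Cdca3, Mki67, Kif23, Ccnb2, Top2a and Ccnb1, which act in chromosome condensation, the spindle, cytokinesis and the control of mitotic entry and exit. Mki67, the classical proliferation marker, had log2 ratios of -1.24 and -1.44, and Ube2c, the ubiquitin-conjugating enzyme of mitotic exit, -1.36 and -1.11. Summed, the G2/M list stood at 3264 CPM against 4600 CPM in the control siRNA library (-0.49, -0.56 to -0.43) and 3423 against 4416 CPM in the other (-0.37, -0.44 to -0.30). Of its 51 genes, 45 and 41 had ratios below 0, and their medians were -0.58 and -0.48 beside -0.04 and 0.02 for all genes. The S phase list had -0.25 and -0.19, and Ccna2, a cyclin of S phase and G2, -1.82 and -0.83.

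The genes called higher in Neurog3-only cells included 2 spermatogonial regulators, and neither call held without the fullest cells. Sohlh1 stood at 188 against 96.5 CPM (log2 ratio 0.96, 0.66 to 1.26) and 161 against 108 CPM (0.58, 0.24 to 0.89). Without the fullest cell in each library, with 9 of 104 and 16 of 85 UMIs, it had 0.89 and 0.33. Bcl6b, a transcriptional repressor induced by GDNF and needed for stem cell maintenance in culture, stood at 123 against 78.9 CPM (0.64, lower bound 0.26) and 138 against 80.0 CPM (0.79, 0.42 to 1.13). Single cells held 12 of its 68 and 20 of its 73 UMIs, and without them it had 0.43 and 0.38. Of the 20 genes called higher, 4 met the limits without the fullest cells, Irf8 and Eef2k among them. The stem cell list as a whole had 0.11 (-0.02 to 0.25) in the control siRNA library and 0.50 (0.37 to 0.62) in the Chd4 siRNA library. The progenitor list had 0.10 (-0.01 to 0.21) and 0.21 (0.10 to 0.32), with 1 of 13 genes called, Sohlh1. Irf8 had 1.51 and 1.48 in these cells and Eef2k 1.64 and 1.59.

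In Stra8-only cells, 22 genes were higher (0.224%) and 7 lower (0.0712%) than in other germ cells. Bcl6b was among the 7, with log2 ratios of -1.04 and -0.79, as was Dusp6, with -1.10 and -1.17. Trf, the transferrin gene, had -1.98 and -1.76. The stem cell list stood at 543 against 783 CPM (-0.53, -0.73 to -0.33) and 589 against 744 CPM (-0.34, -0.51 to -0.17). Among the genes called higher were Nasp (0.74 and 0.67), a histone chaperone, and Chaf1b (1.20 and 1.05), a subunit of the chromatin assembly factor that follows DNA replication. Igfbp6 had 1.61 and 1.03. Without the fullest cell of each gene 2 of the 22 met the limits, Igfbp6 among them, with 0.99 and 0.58, and neither Nasp nor Chaf1b did.

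Other lists had summed ratios above 0 in Stra8-only cells in both libraries. G2/M had 0.16 and 0.24 with 0 of 51 genes called, while S phase had -0.04 and 0.21. In the control siRNA library 12 of 24 Stra8-only cells lay above the G2/M median of other germ cells. The immediate early and dissociation list had 0.39 and 0.33 with 0 of 17 called. The meiotic entry list, which Stra8 is known to precede, had 0.32 in the control siRNA library and 0.00 in the other. Of the 159 UMIs of its gene Sycp3 in control Stra8-only cells, 46 came from 1 cell. Above the list median of other germ cells were 15 of 24 (62.5%, 40.6 to 81.2) and 16 of 27 (59.3%, 38.8 to 77.6) Stra8-only cells. The fibroblast markers moved with this kind: they summed to 992 against 838 CPM (0.24) and 1067 against 830 CPM (0.36), while the 5 fibroblast genes of the rule had -0.15 and -0.11. Their part in these differences was not tested.

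**Figure D4:**
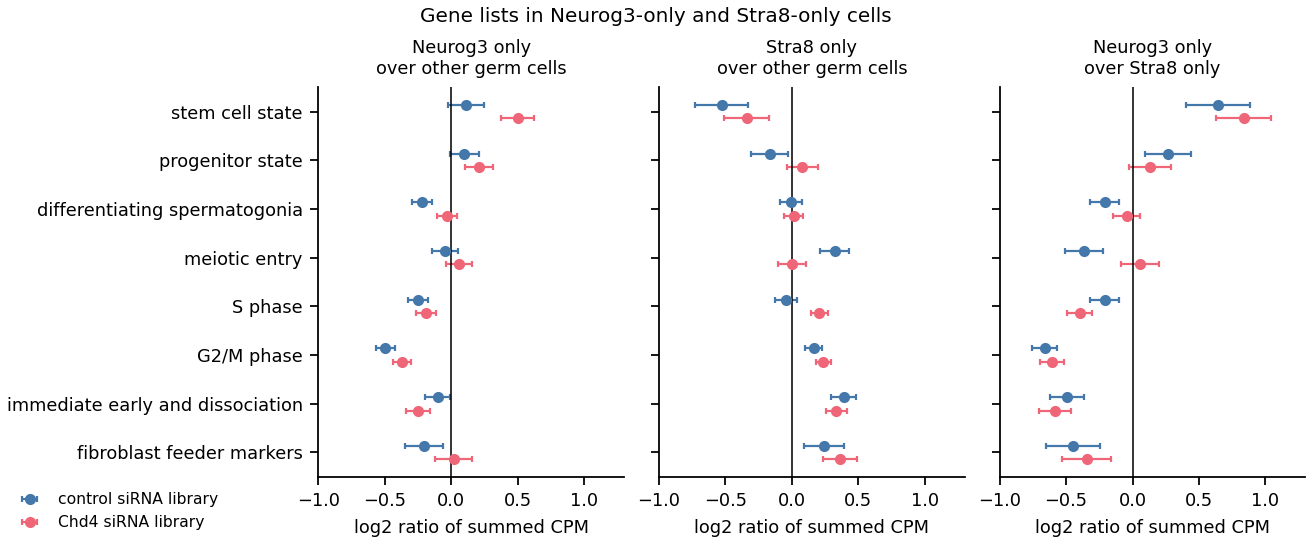
Log2 ratio of summed CPM (x axis) for 8 gene lists (y axis): Neurog3-only over other germ cells (left), Stra8-only over other germ cells (middle) and Neurog3-only over Stra8-only cells (right), in the control siRNA (blue) and Chd4 siRNA (red) libraries; bars are 95% counting intervals. In the right panel the stem cell list lies above 0 and the S, G2/M, immediate early and fibroblast lists below 0 in both libraries.

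Set against each other, Neurog3-only cells had 16 genes higher (0.163%) and 41 lower (0.417%) than Stra8-only cells in both libraries. Without the fullest cell of each gene 6 and 16 met the limits. The stem cell list was at 847 against 543 CPM (log2 ratio 0.64, 0.40 to 0.88) and 1050 against 589 CPM (0.84, 0.63 to 1.04). The medians of its 16 genes were 0.85 and 0.76, given here without the all-gene medians. Of the list, Bcl6b was the 1 gene called. It had 68 UMIs in 34 Neurog3-only and 15 in 24 Stra8-only control cells (123 against 38.4 CPM; 1.68, 0.86 to 2.59). In the Chd4 siRNA library the counts were 73 in 35 cells and 23 in 27 cells (138 against 46.2 CPM; 1.58, 0.88 to 2.32). The share of cells with a Bcl6b UMI differed less, 22 of 34 against 13 of 24 and 22 of 35 against 13 of 27, and the fullest Neurog3-only cells held 12 and 20 UMIs against 2 and 6 in Stra8-only cells. Without those 2 fullest cells Bcl6b had 1.47 (0.63 to 2.40) and 1.18 (0.44 to 1.95) and met the limits. Bcl6b lies on chromosome 11 (70224128 to 70229798, minus strand) in GRCm38. Ret, the GDNF receptor, had 0.77 and 0.82 and was not called, and Lhx1, a target of GDNF, had -0.04 and 1.52.

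The genes lower in Neurog3-only than in Stra8-only cells were led by those of dividing cells. The G2/M list stood at 3264 against 5157 CPM (-0.66, -0.75 to -0.57) and 3423 against 5207 CPM (-0.61, -0.69 to -0.52), and 9 of its 51 genes were called lower (Cenpf, Ube2c, Smc4, Cenpa, Cdca3, Mki67, Hmgb2, Top2a and Ccnb1). Ube2c had -2.18 and -1.48. The S phase list had -0.21 and -0.40, and Nasp -1.26 and -0.94. Also called lower were Ezh2, the methyltransferase of Polycomb complex PRC2 (-1.61 and -1.20), Dppa3, a germ cell and early embryo chromatin factor of the progenitor list (-1.99 and -1.41), and Epcam, an epithelial adhesion molecule (-0.91 and -0.58). Without the fullest cells Ube2c, Cenpa, Cdca3, Hmgb2 and Top2a of the G2/M list met the limits, as did Nasp and Ezh2, and Mki67, Dppa3 and Epcam did not. The immediate early and dissociation list was lower as well, at -0.49 and -0.58, and so were the fibroblast markers, at -0.45 and -0.34, while the 5 fibroblast rule genes had 0.30 and 0.00. The part of these in the contrast was not tested.

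Cell by cell, the 2 kinds overlapped widely. The median of the stem cell list was 8.85 and 10.7 UMIs per 10000 in Neurog3-only cells, 5.10 and 6.06 in Stra8-only cells, 7.41 and 7.18 in Kit-only cells, and 7.69 and 7.06 in other germ cells. Of the Neurog3-only cells, 20 of 34 (58.8%, exact binomial interval 40.7 to 75.4) and 29 of 35 (82.9%, 66.4 to 93.4) lay above the median of other germ cells, against 7 of 24 (29.2%, 12.6 to 51.1) and 9 of 27 (33.3%, 16.5 to 54.0) of the Stra8-only cells. In the control siRNA library these intervals overlap, and in the Chd4 siRNA library they do not.

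The G2/M difference lay more in the tail of cells with high values than in the median. The medians were 25.5 and 27.1 UMIs per 10000 in Neurog3-only cells, 29.6 and 33.8 in Stra8-only cells, and 29.7 and 29.0 in other germ cells. Above the upper quartile of other germ cells were 3 of 34 (8.82%, 1.86 to 23.7) and 5 of 35 (14.3%, 4.81 to 30.3) Neurog3-only cells, and 7 of 24 (29.2%, 12.6 to 51.1) and 11 of 27 (40.7%, 22.4 to 61.2) Stra8-only cells. Those intervals overlap in both libraries. The interval of the summed UMIs, which takes each UMI as independent, is thus much narrower than what these numbers of cells can show.

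**Figure D5:**
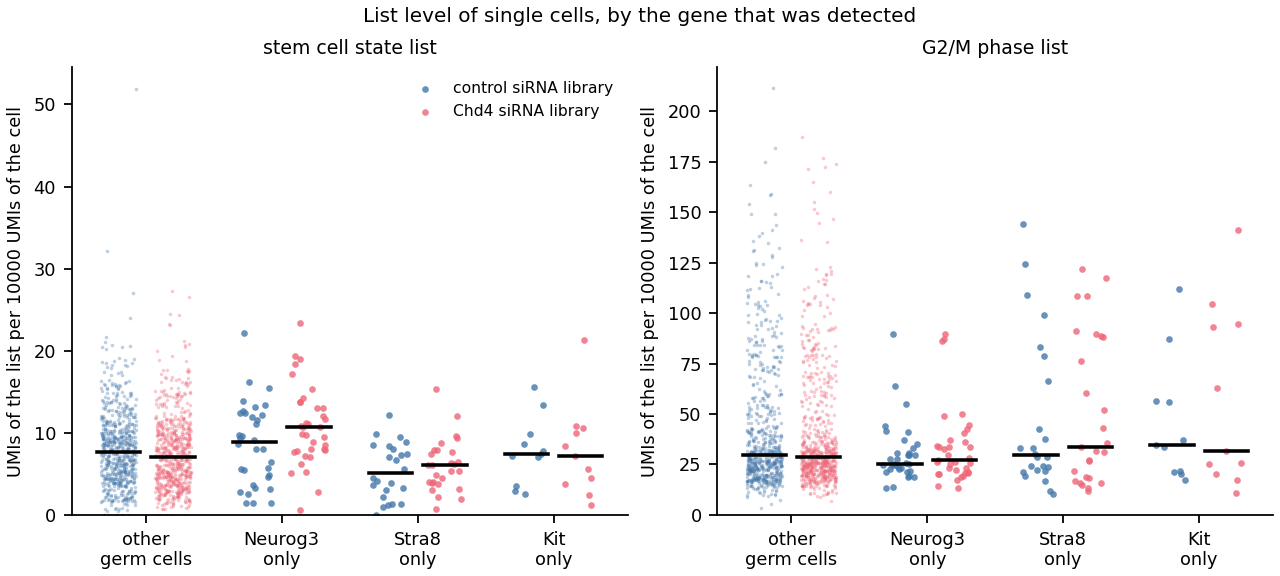
UMIs per 10000 UMIs of the cell (y axis) of the stem cell list (left) and the G2/M list (right), 1 point per cell, for other germ cells and cells with Neurog3, Stra8 or Kit alone (x axis), in the control siRNA (blue) and Chd4 siRNA (red) libraries; black lines are medians. Neurog3-only cells have the higher stem cell medians, at 8.85 and 10.7, and few of them reach the high G2/M values seen in the other groups.

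Cells with Kit alone were too few for calls to carry weight, with 11 in each library. The sum of their progenitor list was lower than in other germ cells, with log2 ratios of -0.25 (-0.47 to -0.04) and -0.28 (-0.50 to -0.07). In other germ cells, Ccnd2 held 6896 of the 12743 and 7026 of the 13128 UMIs of this list. Ccnd2 had 82 of 171823 UMIs in control and 71 of 180726 UMIs in Chd4 siRNA Kit-only cells. In other germ cells it stood at 659 and 640 CPM, so the list sum leans on it. The list without Ccnd2 was not computed, so the lower sum is no finding about its other genes. The part of Ccnd2 in the difference was not tested. Sall4, a zinc finger factor of undifferentiated spermatogonia within that list, had 3 and 2 UMIs (-1.46 and -1.86). Those counts do not exceed the floor of 3 and do not stand for the list. Within it, Sohlh1 was detected in 63.6% and 72.7% of Kit-only cells against 63.4% and 65.0% of others. Egr4 was detected in 45.5% and 54.5% against 56.9% and 56.5%. The G2/M list went in opposite directions, -0.12 and 0.49. The 10 cells per library with at least 2 UMIs of the 3 genes had a higher meiotic entry list, at 0.59 (0.45 to 0.73) and 0.38 (0.22 to 0.55), and a retinoic acid list at 0.31 and 0.59, while their stem cell list went from -0.29 in the control siRNA library to 0.48 in the other.

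Chd4, the target of the siRNA, was lower in the Chd4 siRNA library in members and in other germ cells alike. It stood at 495 CPM in control members and 239 CPM in Chd4 siRNA members (log2 ratio -1.05, -1.25 to -0.84), and at 540 and 255 CPM in the other germ cells (-1.08, -1.15 to -1.02). Between libraries, 430 genes were higher (4.38%) and 204 lower (2.08%) in the members, and 149 higher (1.52%) and 204 lower (2.08%) in the other germ cells, by the same limits on 1 ratio. The members held 1148730 and 1241077 UMIs, against 10462593 and 10976129 in the other germ cells. Ratios of the smaller pool scatter more, so these counts do not compare the size of a response. The siRNA and the library cannot be told apart with 1 library per group.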

How the data were processed

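The deposited matrices hold UMI counts per gene and cell from droplet libraries, made with Cell Ranger 2.1.0, Seurat and mm10 per the submitters' processing notes, which give no roles or filters. The gene list used here names most matrix rows; unnamed rows, 12.1% and 12.6% of UMIs, were not analysed here, nor was the last cell of each matrix. The germ cells held 11611323 (control) and 12217206 (Chd4 siRNA) UMIs. Samples were grouped by the treatment in the labels.

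UMIs of the deposited counts were summed over members and over other germ cells in each library and divided by all UMIs (CPM). Log2 ratios have exact conditional binomial intervals and shares have Clopper-Pearson intervals (scipy 1.17.1); share differences have Newcombe intervals (statsmodels 0.14.6). The floor of a count of 0 is 3 counts. No p-value was computed, since each group was 1 library. UMIs from 1 cell are not independent cells, so intervals cover counting error only. The constant rate is the library's UMIs of a gene over all germ cell UMIs, applied to the depth of each cell. Doublets were kept and marked by Scrublet (scanpy 1.11.5) at an expected rate of 1%. edgeR 4.0.16 and DESeq2 1.42.0 were used for scaling alternatives only. The procedure was tested on simulated data. Positions are from GENCODE M21 (GRCm38).

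Genes named are the 12 highest by the smaller lower bound of the 2 libraries and the 12 lowest by the larger upper bound, without the 3 rule genes, plus the rule genes, Chd4 and up to 4 genes from each of 21 gene lists; genes of the single kinds of cell were chosen after their values were seen. The members and lists were chosen with earlier results of these data known. Gfra1 and some other list genes were in unnamed rows and were not analysed here. Alternatives covered depth, doublets, the germ cell rule, scaling, gene minimum, the definition of members and, added after the data were seen, the fullest cell of each gene.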

Additional observations from a re-analysis of the deposited data

How the results depend on the processing

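The share of members was 5.41% and 6.47% with cells thinned to 9000 UMIs, and within the error of the main value under the other alternatives run. The 18 genes called higher became 9 with a minimum of 400 UMIs per gene, where fewer genes were tested, and 9 with Kit-only cells. The 5 called lower became 3 with a germ sum at least 10 times the fibroblast sum, 2 with the 400 minimum, 1 in cells with at least 2 UMIs, 8 by the mean of per-cell CPM and 23 in Neurog3-only cells. The Pearson correlation was 0.0042 after thinning, 0.0049 by mean CPM, 0.063 for Kit-only, 0.070 for Neurog3-only, 0.084 for cells with at least 2 UMIs, and 0.238 with no gene minimum; the cause was not tested.

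Which cells counted as members changed the directions most (values control, then Chd4 siRNA library, where both moved). The stem cell list had -0.29 and 0.48 in cells with at least 2 UMIs, -0.53 and -0.34 in Stra8-only cells, and 0.11 and 0.50 in Neurog3-only cells. The progenitor list had 0.34 in Chd4 siRNA cells with at least 2 UMIs, -0.25 and -0.28 in Kit-only cells, -0.17 in control Stra8-only cells, and 0.10 and 0.21 in Neurog3-only cells. These sums lean on Ccnd2, which held 6896 of 12743 and 7026 of 13128 UMIs of the list in other germ cells. In control Stra8-only cells Ccnd2 stood at 459 against 659 CPM. The list without Ccnd2 was not computed, so these directions are no finding about its other genes.

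These values reversed. With at least 2 UMIs, control members had differentiating list 0.19, S phase 0.21, G2/M 0.11 and Eif5a 0.15, and Chd4 siRNA members had stress response 0.26, Zfp263 -0.70, Sfrp2 -1.29 and Nanos3 -0.28. Control Kit-only cells had meiotic entry -0.19, immediate early -0.040, Tet3 -0.21, Zfp263 -1.38, Sohlh1 -0.052, Egr4 -0.29, Igfbp6 -2.73 and Gtpbp4 0.030. Chd4 siRNA Kit-only cells had fibroblast markers -0.089, Eef2k -0.18, Egr4 -0.40, Igfbp6 -1.0, Nanos3 -0.046, Tex2 0.21 and Eif5a 0.044. In Stra8-only cells, control G2/M was 0.16, Chd4 siRNA stress response 0.030 and Rpl22 0.10. Neurog3-only cells had control meiotic entry -0.046 and immediate early -0.10, and Chd4 siRNA germ cell rule genes -8.0e-05, S phase -0.19, G2/M -0.37, Igfbp6 -0.85 and Dusp6 0.041. In control cells with exactly 1 UMI, an alternative chosen after seeing the data, meiotic entry was -0.015. The cause of these reversals was not tested.

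For Neurog3-only over Stra8-only cells all alternatives were chosen after seeing the data. G2/M was -0.76 and -0.51 with the germ sum at least 10 times the fibroblast sum. Thinned to 9000 UMIs, 8 genes were higher and 22 lower, and by mean CPM 26 were higher. The stem cell, S and G2/M lists kept their direction under each alternative run. Leaving out the cell with 7 Neurog3 UMIs, also added later, moved no count by over 1.5 times, but took control Nanos3 to 0.43 and so ended that call. Leaving out the fullest cell of each gene, added last, left 3 of 18 genes higher and 4 of 5 lower in members, and 6 of 16 higher and 16 of 41 lower in Neurog3-only than in Stra8-only cells. For genes lower in members the cell left out was 1 of the 659 or 685 other germ cells, which moves a ratio less. No paired analysis was possible because each group is 1 library and no result comes from a test. Depth limits all kinds of cell, and the number of cells limits above all the Kit-only cells, with 11 per library.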
